A study of Bos taurus with 35 samples.

Results

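A set of 202 genes of the 24596 gene rows was counted far more often in intramuscular fat than in the other tissues of the same cattle. The members were chosen from the measured values. Their median over the 8 intramuscular (I) libraries was at least 5 CPM (counts scaled to library size, with TMM factors that correct each library for its composition). That median was also at least 4 times the median of the omental fat (O), subcutaneous fat (S) and muscle (M) libraries, each taken separately. They made up 0.821% of all gene rows and 1.83% of the 11058 genes with a median of at least 5 CPM in I. The 31 genes of the study's primer table, used for qRT-PCR, were left out by the rule, although TNMD and CCL2 among them met both thresholds.

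RNA-seq libraries came from tissues of 9 Hanwoo (Korean native) cattle, all labelled 30 months old and raised at 1 experimental station. The labels give 3 animals as female, 3 as castrated male and 3 as male, while the study's methods speak of steers. Files for 9 O, 9 S, 8 I and 8 M libraries were used, without I of animal 9 and M of animal 7, and libraries are numbered here by animal. The labels name no treatment, so the groups differ in tissue, and the depots were compared to ask how fat cell programmes depend on where the fat lies.

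Fat depots store triglyceride in adipocytes and also hold vessels, nerves, connective tissue, resident immune cells and adipocyte precursors. Intramuscular fat, the marbling of beef, lies between the fibres and bundles of skeletal muscle, so a dissected piece can carry muscle and the connective sheaths around it. Omental fat lies in the abdomen and subcutaneous fat under the skin, both away from muscle fibres. The libraries are of whole tissue, so more cells of a type and more RNA per cell cannot be told apart.

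The count tables identify genes by Ensembl identifiers and do not pair them with names, and 31 names came from the primer table. The members are therefore given by identifier, with no statement of their function, and the cell type marker lists and pathway lists could not be applied. CPM values are not divided by gene length, so a higher CPM for one gene than for another says which took more counts and not which had more transcripts. The libraries held 11129498 to 23427645 counts, of which 3726376 to 7184022 fell on genes. Intramuscular replicate 5 stood apart, with a median r of 0.805 to the other I libraries where the others had at least 0.923. Its share of reads with more than 1 alignment was 15.4%, and the lowest among the I libraries was 8.22%. Replicate 4, with a median r of 0.934, was next highest at 13.1%. Muscle replicate 8 also stood apart (median r of 0.899 with the other M libraries) and held 57.1% of the typical muscle level of 153 muscle-restricted genes. The muscle library labelled as female animal 4 did not match that animal's other tissues. It carried 5 genes that differed by sex label in I at an edgeR FDR under 0.05, none of them a member, at a summed 210.5 CPM. The O, S and I libraries of animal 4 had 0, 0.118 and 0 CPM, and the other female muscle library 0.416 CPM. Its label may thus be wrong, and leaving it out gave 204 members, 201 of them shared.

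Among the named genes, those of fat storage and muscle describe the tissue. FASN, the fatty acid synthase, had a median of 599 CPM in I, between the 64.7 CPM of M and the 2388 CPM of O and 4175 CPM of S. DGAT2, which makes triglyceride, had 629 CPM in I, 48.7 in M, 2397 in O and 3103 in S. For both of these lipid genes the median of I lay below both other fats and above muscle. TPM2, a tropomyosin of muscle, ranged from 839 to 2023 CPM in I, above every O and S library (70.7 to 262 CPM) and below every M library (21907 to 51135 CPM). Measured with the 153 muscle-restricted genes, the I libraries held 0.147% to 2.42% of the muscle level. The members themselves lay at least 4 times lower in muscle than in I by median, as the rule required. For 138 of them every muscle library was below every I library (160 with muscle replicate 8 set aside), a contrast that the rule itself used. The share over all genes was not taken for this contrast, so nothing is read from the size of these counts.

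The strength of the members varied over 3 orders of magnitude. Their I medians ran from 5.04 to 5120.1 CPM, with a median of 41.6 CPM. Of the 202 members, 9 had an I median of at least 1000 CPM, 70 at least 100 CPM and 39 under 10 CPM. The ratio of the I median to the highest of the other medians ran from 4.01 to 97.4, with a median of 6.45. A ratio of at least 8 was found for 70 members, at least 10 for 48 and at least 20 for 20, while 55 had a ratio below 5. The members just inside the threshold had ratios of 4.01, 4.05 and 4.05, and the genes just outside had 3.99, 3.98 and 3.95. For 9 members the medians of O, S and M were each at most 3 counts, so their ratios carry a large counting error. The next highest tissue was O for 70 members, S for 65 and M for 67, so no single tissue was the runner-up. The median ratio was 8.44 to O, 9.17 to S and 9.70 to M.

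**Figure D1:**
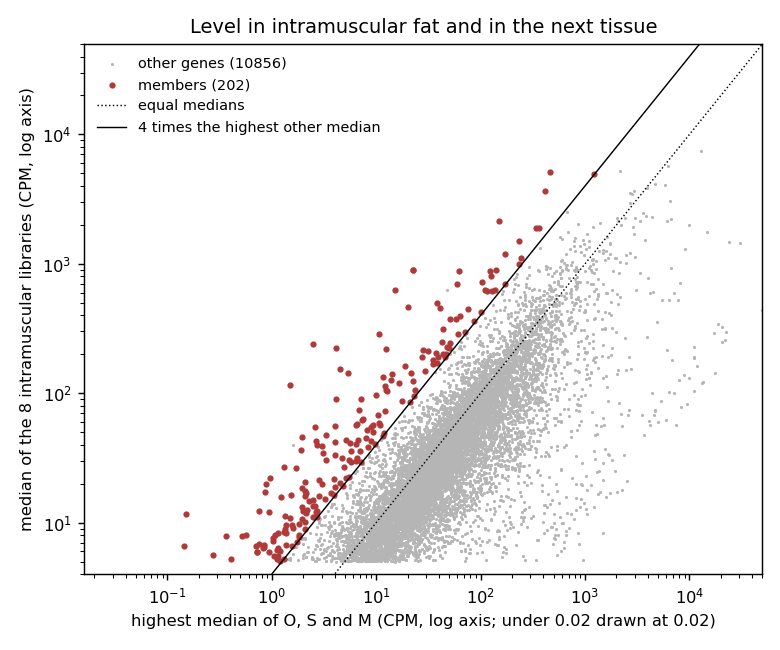
Each point is a gene with a median of at least 5 CPM in I, placed by the highest median of O, S and M (x axis, CPM, log scale) and the median of the 8 I libraries (y axis, CPM, log scale). The 202 members (red) lie on or above the solid line of 4 times the highest other median, which the rule set. They reach 5120.1 CPM, and most of the 10856 other genes (grey) scatter about the dotted line of equal medians.

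Together the members took a sizeable part of the counted reads of intramuscular fat. Their summed share of the counts on genes was 3.91% to 7.002% in the 8 I libraries, with a mean of 5.64% ± 1.04 (SD, n = 8). It was 0.794% ± 0.177 in O (n = 9), 0.675% ± 0.110 in S (n = 9) and 0.407% ± 0.233 in M (n = 8). The lowest I library, replicate 5, lay above every library of the other tissues, of which the highest held 1.11%. In muscle, replicate 8 had 0.966% and the other 7 libraries at most 0.440%. The 10 members with the highest I medians made up 49.8% of the summed I medians, and 3 of the 20 genes with the highest I medians were members.

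**Figure D2:**
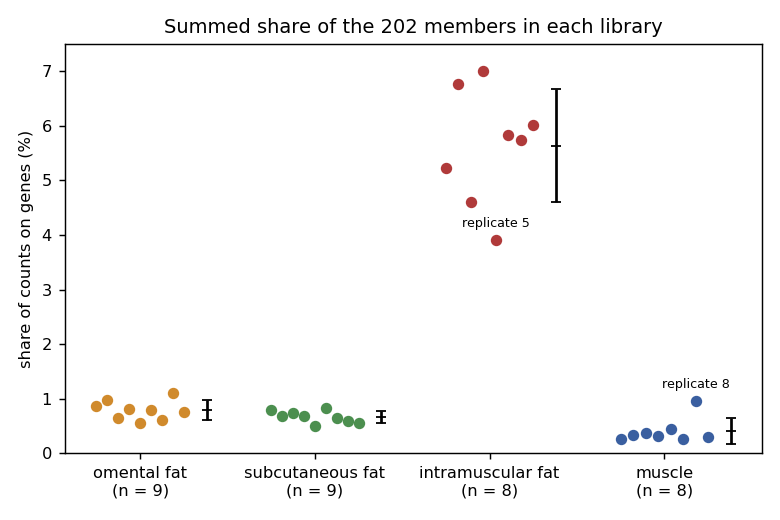
Each point is a library, and the y axis gives the percent of its counts on genes that fell on the 202 members. The black bar is the mean with its SD. The 8 I libraries lie between 3.91% and 7.002%, and the 26 other libraries reach at most 1.11%, with muscle replicate 8 the highest of M at 0.966%.

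ENSBTAG00000015988 took the most counts of all members. It ranged from 1847 CPM in intramuscular replicate 5 to 8697 CPM in replicate 4, with a median of 5120.1 CPM. In O it ranged from 113 to 779 CPM (median 458), in S from 74.5 to 619 CPM (median 175) and in M from 212 to 669 CPM (median 313). The lowest I library was thus above the highest library of every other tissue. ENSBTAG00000011190 came second, with 1987 to 9214 CPM in I and medians of 1211 CPM in O, 888 in S and 527 in M. Its ratio of 4.07 lay close to the threshold, while that of ENSBTAG00000015988 was 11.2.

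Other members combined a high level with a large ratio. ENSBTAG00000014921 had the largest ratio, 97.4. It ranged from 34.6 CPM in intramuscular replicate 7 to 508 CPM in replicate 2 (median 239 CPM), and no library outside I exceeded 21.1 CPM. Its medians elsewhere were 0.986 CPM in O, 2.46 in S and 0.640 in M. ENSBTAG00000027513 followed with a ratio of 76.4, from 24.0 CPM in replicate 4 to 449 CPM in replicate 3. It was at 0 counts in at least 1 muscle library and reached at most 9.92 CPM outside I. ENSBTAG00000013210 was strong and even, with 602 to 1271 CPM in I, medians of 18.6 CPM in O, 22.4 in S and 13.5 in M, and at most 54.2 CPM in any other library. The groups did not overlap for any of these members, and the 3 differed mainly in how evenly the I libraries carried them.

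**Figure D3:**
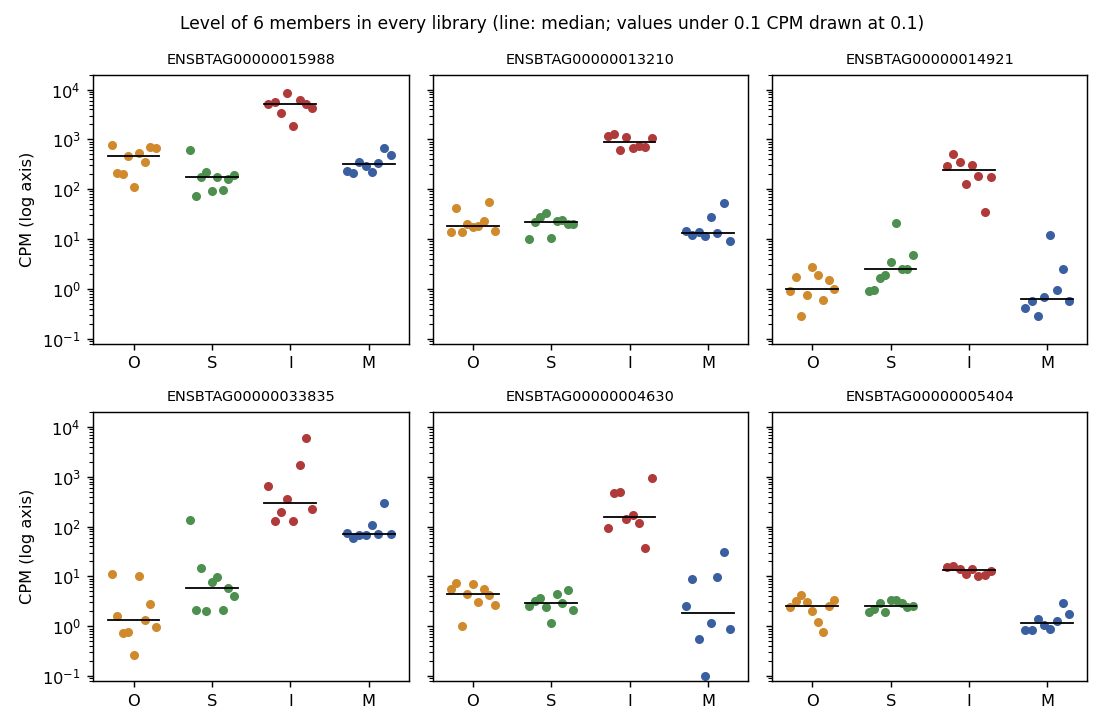
Level of 6 members in every library of O, S, I and M (y axis, CPM, log scale, with the median as a line). ENSBTAG00000005404 and ENSBTAG00000013210 are even over the 8 I libraries. ENSBTAG00000033835 spreads from 132 to 6119 CPM there and overlaps the muscle library at 303 CPM.

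The separation from other tissues held library by library for many members. All 8 I libraries lay above all 26 other libraries for 109 members, against 2.28% of the genes with a median of at least 5 CPM in I, a contrast that the rule itself used. The count was 146 without intramuscular replicate 5, 123 without muscle replicate 8 and 156 without both. Within animals, I was above O in all 8 animals for 183 members, above S in all 8 for 184 and above M in all 7 for 181. All 3 of these held together for 164 members. Without the doubtful muscle library of animal 4, I was above M in all 6 remaining animals for 184 members, and all 3 held for 166. The rule chose the members on these same levels, so the counts within animals are a description and nothing is read from their size. Outside I, muscle replicate 8 was the highest library for 61 members, and no other library was the highest for more than 21. The part of this library's makeup in those values was not tested.

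The spread of the members over the 8 animals was wider at the median than that of all genes detected in I. The SD of log2 CPM over the I libraries had a median of 0.69 for the members and 0.40 for all genes with a median of at least 5 CPM in I. Without replicate 5 these medians were 0.56 and 0.29. The highest I library exceeded the lowest by a median of 4.21 times, by less than 3 times for 71 members and by more than 10 times for 53. In their lowest I library 185 members had at least 10 counts. Members with lower I medians tended to vary more (Spearman rho of -0.38 between I median and SD). The part of counting error in the wider spread was not tested. The steadiest by this SD was ENSBTAG00000005404, with 10.2 to 16.3 CPM in I and at most 4.17 CPM elsewhere. Replicate 5 was the lowest I library for 80 members (39.6%), replicate 7 for 34 and replicate 3 for 32. Replicate 4 was the highest for 51, replicate 2 for 44 and replicate 8 for 41. So the animals with the strongest values differed from member to member.

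Which members rose and fell together was described with Pearson's r of log2 CPM over the 8 I libraries. These r share the same 8 libraries, so they carry no test. Over all pairs of members the median r was 0.15, against 0.00 for all genes with a median of at least 5 CPM in I, and 0.12 against 0.00 without replicate 5. Pairs with r above 0.7 made up 9.28% for the members and 9.61% for all genes. Pairs with r below -0.7 made up 1.82% and 9.01%. Without replicate 5 the shares above 0.7 were 9.33% and 5.49% and those below -0.7 were 4.95% and 5.24%, so that library set both comparisons. Average linkage at r = 0.7 divided the members into 44 groups, 17 of them with at least 5 members and 148 members in all, and left 13 members alone. The members thus did not move as 1 block over the animals.

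**Figure D4:**
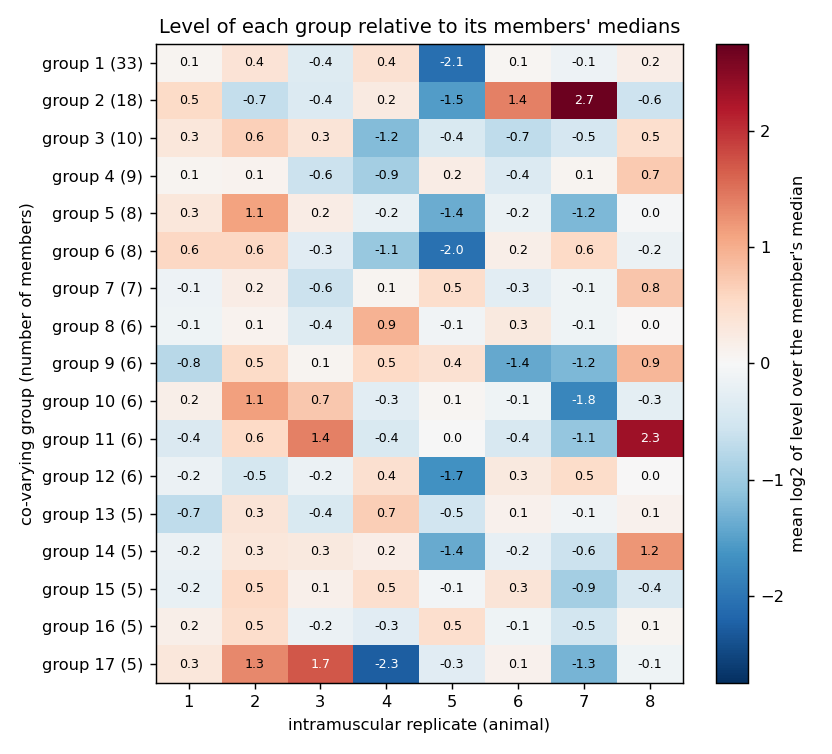
Rows are the 17 groups with at least 5 members, columns the 8 I libraries by animal, and each cell gives the mean over the members of log2 of the level divided by the member's own I median. Group 1 is low in replicate 5, group 2 high in replicates 7 and 6, group 11 high in replicates 8 and 3, and group 17 low in replicate 4.

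Group 1 was the largest, with 33 members, among them ENSBTAG00000015988 and ENSBTAG00000011190 (r = 0.981 with each other). ENSBTAG00000015986, with 305 to 1371 CPM in I, followed ENSBTAG00000015988 still more closely (r = 0.994). The group stood at 0.238 of its members' medians in replicate 5 and between 0.780 and 1.33 in the other 7 libraries. Its median r within the group was 0.83 and fell to 0.41 when replicate 5 was left out, so much of the likeness rested on that library. The named gene most like it was TBX15, a T-box transcription factor (r = 0.885 with the group mean). TBX15 was itself lowest in I in replicate 5, at 11.1 CPM against a median of 40.7 CPM.

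Group 2 held 18 members that were high in 2 animals. They stood at 6.50 times their medians in replicate 7 and 2.62 times in replicate 6, and at 0.344 in replicate 5. ENSBTAG00000033835 was the member of this group with the most counts. It had 6119 CPM in replicate 7, 1727 CPM in replicate 6, 649.7 CPM in replicate 1 and between 132 and 365 CPM in the other 5. These other values overlapped muscle, where it ranged from 59.8 to 303 CPM. The median r in the group was 0.87, and 0.76 without replicate 7. The group mean followed ADAM23 (r = 0.962), a membrane protein of the ADAM family, and ERBB3 (r = 0.947), a receptor kinase that answers neuregulins. ERBB3 had 127.6 CPM in replicate 7 and 45.8 CPM in replicate 6 and at most 17.8 CPM in the other I libraries.

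Each of the named genes that met the thresholds was the named gene most like 1 of the groups. TNMD, which encodes the tendon protein tenomodulin, had a median of 39.9 CPM in I (6.90 to 142.7 CPM), 0.146 in O, 0.131 in S and 1.59 in M. Group 11, with 6 members, followed it (r = 0.922), at 5.03 times its medians in replicate 8 and 2.61 times in replicate 3. In this group ENSBTAG00000004630 ranged from 36.9 CPM in replicate 7 to 938 CPM in replicate 8 and outside I reached 30.2 CPM, in muscle replicate 8. CCL2, a chemokine that attracts monocytes, had a median of 627 CPM in I (257 to 864 CPM), 42.5 in O, 47.8 in S and 22.9 in M. Group 10, with 6 members including ENSBTAG00000014921, was most like CCL2 among the named genes (r = 0.832). ERBB3 ran opposite to this group with a larger r in size (r = -0.874). Group 10 stood at 0.290 of its medians in replicate 7, where CCL2 was also lowest. Group 17, with 5 members including ENSBTAG00000027513, stood at 3.27 times its medians in replicate 3 and 0.208 in replicate 4.

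Some members lay closer to a named gene than most genes did. At r of at least 0.9 over the 8 libraries, 10 members (4.95%) followed ADAM23, against 0.859% of all genes with a median of at least 5 CPM in I. For ERBB3 it was 7 members (3.47%) against 0.733%, and for TNMD 3 members (1.49%) against 0.172%. For IGF2BP2, which encodes an RNA-binding protein, it was 6 members (2.97%) against 1.56%. For TBX15 it was 7 members (3.47%) against 7.66%. No member reached that r with CCL2, where the share of all genes was 0.0181%. Replicate 5 decided the values for TBX15 and IGF2BP2, since over the other 7 libraries 2 members (0.99%) followed TBX15, against 0.226% of all genes, and 0 followed IGF2BP2, against 0.118%. Over the same 7 libraries the members were 10 for ADAM23 (4.95% against 1.5%), 9 for ERBB3 (4.46% against 1.5%) and 4 for TNMD (1.98% against 0.534%). In I, ADAM23 (48.9 CPM) and ERBB3 (127.6 CPM) were highest in replicate 7 and TNMD (142.7 CPM) in replicate 8. The shares were not taken without those libraries. The named genes compared here were picked after their values were seen.

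The likeness was also looked at in the other tissues, whose libraries did not form the groups but came from the same animals. Pairs were taken among members with a median of at least 10 counts in the tissue. In O, pairs within a group had a median r of 0.38 and pairs across groups 0.17 (141 members, 9 libraries). In S the medians were 0.21 and 0.02 (134 members, 9 libraries), and in M 0.46 and 0.37 (105 members, 8 libraries). Pooled over the groups, within-group pairs were thus closer in all 3 tissues, with the smallest gap in muscle. Group 1 weighed most in the pooled values, with 26 members compared in O, 22 in S and 18 in M. Not every group shared this. In O the medians of groups 2, 3, 6, 9, 11, 12 and 16 lay below that of pairs across groups. In S those of groups 5, 6, 11 and 15 did, and in M those of groups 4, 5 and 6. Group 8 held its likeness best, with a median r of 0.77 in O, 0.65 in S and 0.79 in M over its 6 members, against 0.81 in I, which fell to 0.50 without intramuscular replicate 4. Group 13, with 5 members, had 0.64, 0.48 and 0.78. In contrast, group 11 had -0.24 in O and -0.35 in S, over the 3 members that could be compared in each. These groups were picked out after the values were seen, and no test was made.

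**Figure D5:**
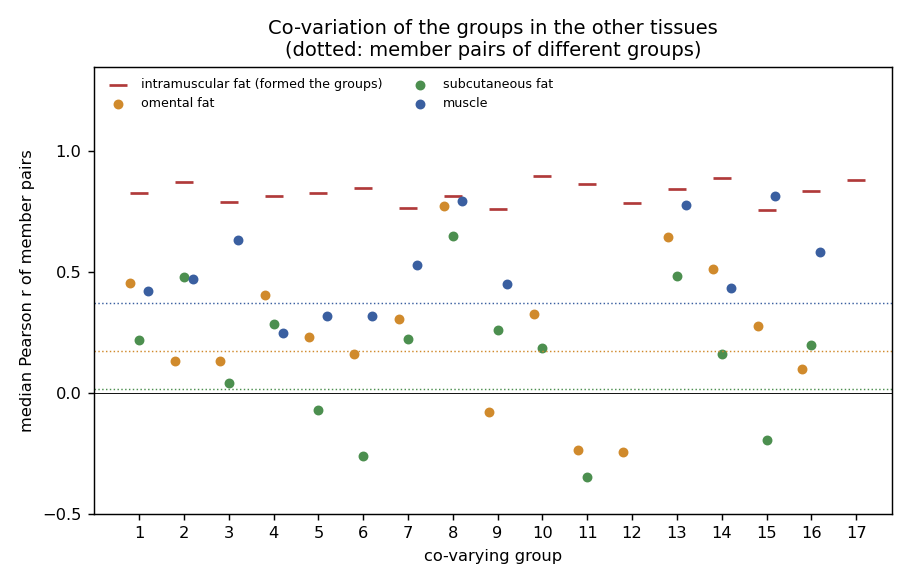
Median r of the member pairs of each co-varying group in O, S and M (points, members with a median of at least 10 counts, groups with at least 3 of them) and in I, which formed the groups (red dashes). Dotted lines mark the median r of member pairs from different groups, 0.17 in O, 0.02 in S and 0.37 in M. Groups 1, 7, 8, 13 and 14 lie above these lines in all 3 tissues.

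Animals with a high level in I were not clearly those with a high level elsewhere. Over the 8 animals with both tissues, the median r of a member's log2 CPM in I and in O was 0.30, against 0.22 for all genes. With S it was 0.01 against 0.06 (8 animals), and with M 0.22 against 0.33 (7 animals), or 0.19 against 0.38 without animal 4. These r are descriptions over the same animals.

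The rule did not compare O with S, but it held each of them at least 4 times below I, which bounds the members' levels in both. Of the 202 members, 139 passed the filter on low counts. Of these, 3 were higher in O, against 2% of all 12966 genes tested, and 1 was higher in S, against 1.32%, by edgeR's quasi-likelihood test at a false discovery rate (FDR) under 0.01. With the animal as a block, since each animal gave both fats, 14 were called, 11 higher in O (background 4.57%) and 3 higher in S (3.66%). The median log2 fold change of O over S was 0.05 for the members tested and -0.01 for all genes. Its size, sign aside, had a median of 0.36 for the members and 0.17 for all genes. Because the rule bounded both levels, nothing is read from these shares or sizes against those of all genes.

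All 3 members called higher in O without the block belonged to group 1. With the animal as a block, 6 of the 11 called higher in O belonged to group 1 and the rest to other groups. ENSBTAG00000007602 had a median of 7.56 CPM in O (2.71 to 25.2), above the highest S library at 2.24 CPM. It rose by a log2 fold change of 2.88 (SE 0.40, edgeR adjusted p = 7.93e-05), with O above S in each of the 9 animals. ENSBTAG00000008940 rose by 1.95 (SE 0.40, edgeR adjusted p = 0.00393) in 8 of 9 animals. ENSBTAG00000018465 rose by 1.74 (SE 0.40, edgeR adjusted p = 0.00987) in 9 of 9 animals. Leaving out 1 animal at a time, the adjusted p of ENSBTAG00000008940 reached 0.0137 and that of ENSBTAG00000018465 reached 0.0391, and each lost its call in 6 of the 9 cases. ENSBTAG00000015988, the member with the most counts, was higher in O in 9 of 9 animals with a log2 difference of 1.15 (SE 0.40, adjusted p = 0.0889 by edgeR). With the animal as a block its adjusted p was 0.00257. Of the 25 members of group 1 that were tested, 20 had a higher fitted level in O, with a median log2 fold change of 0.55. These members were grouped by moving together in I and also moved together in O (median r of 0.46), so they are not separate cases.

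The member called higher in S without the block was ENSBTAG00000007239 of group 10, which was also among the 3 called with it. It ranged from 5.32 to 68.4 CPM in S (median 13.9) and from 0.432 to 3.77 CPM in O (median 2.44), so the depots did not overlap. The log2 fold change of O over S was -3.33 (SE 0.51, edgeR adjusted p = 0.000257), with S higher in each of the 9 animals. In I it ranged from 21.4 to 322 CPM, and its lowest I library lay within the range of S.

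Muscle was compared with O and S as 1 group. The rule did not compare these tissues, but it held each of them at least 4 times below I, which keeps out genes with a very high level in any of them. Of 154 members that passed the filter, 17 were higher in M, against 31.9% of 13430 genes, and 20 were lower, against 36.3%, at an edgeR FDR under 0.01. The median log2 fold change was -0.06 for the members and -0.11 for all genes, and its size had a median of 0.58 against 0.91. Because of that limit on the members, nothing is read from their shares or sizes against those of all genes. This split depended on scaling. Without TMM factors 2 members were higher and 76 lower, against 13.1% and 65.8% of all genes, and the median of all genes moved to -1.01. Without muscle replicate 8, 12 were higher and 31 lower (background 32.1% and 37.7%). These fits took the O and S libraries of an animal as separate. With the animal as a block, 17 were higher and 29 lower (background 32.6% and 37.6%).

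ENSBTAG00000033835 was among the members higher in muscle. It had medians of 71.2 CPM in M, 1.37 in O and 5.73 in S, and the ranges of M and S overlapped through an S library at 133 CPM. Its log2 fold change was 3.10 (SE 0.69, edgeR adjusted p = 0.000204), and it was 4.25 with the animal as a block, 4.20 by DESeq2 and 2.25 without TMM factors, with an adjusted p up to 0.00474 over the alternatives. ENSBTAG00000018773 was higher in M by 1.95 (SE 0.31, edgeR adjusted p = 1.95e-06), with medians of 5.40 CPM in M, 2.28 in O and 0.910 in S. In I it was well above all of these, at 79.1 to 227 CPM. Among the members lower in M, ENSBTAG00000012314 fell by 2.70 on the log2 scale (SE 0.31, edgeR adjusted p = 6.68e-09), from 48.1 CPM in O and 34.9 in S to 5.09 CPM in M. ENSBTAG00000012228 fell by 2.23 (SE 0.26, edgeR adjusted p = 6.67e-09), from 12.4 and 8.19 CPM to 2.05 CPM. For both of the latter, every M library lay below every O and S library. Without TMM factors the log2 fold changes were 1.08 for ENSBTAG00000018773, -3.60 for ENSBTAG00000012314 and -3.13 for ENSBTAG00000012228. The intramuscular level of ENSBTAG00000012228 (38.8 to 197 CPM) and of ENSBTAG00000012314 (62.7 to 348 CPM) was far above that of muscle in all 8 libraries.

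The sex label was tested within I, where 3 libraries came from females, 3 from castrated males and 2 from males. All 202 members passed the filter and 0 were called at an edgeR quasi-likelihood FDR under 0.01, against 0.0146% of 13687 genes. At an unadjusted p under 0.05 there were 22 members (10.9%), against 4.08% of all genes. Many of the 22 belonged to group 2, whose members moved together and were highest in replicates 7 and 6, so they are not separate cases. The likelihood ratio test and DESeq2 each called 1 member, ENSBTAG00000020814, which is named because it was that call. It had 103 ± 32.1 CPM in castrated males (SD, n = 3), 38.1 ± 3.44 in females (n = 3) and 37.1 ± 4.15 in males (n = 2). The quasi-likelihood adjusted p from edgeR was 0.981, with an unadjusted p of 0.000617 in the same fit across all genes. Replicates 5 and 8, both castrated males, had 122 CPM each, while the remaining castrated male had 66.3 CPM and the other labels 34.1 to 41.1 CPM. With 2 or 3 libraries to a label, small differences were not detectable.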

How the data were processed

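The authors aligned RNA-seq reads to the bovine genome bosTau6 with TopHat2 2.0.2 and counted reads per Ensembl gene with HTSeq 0.5.3p3, per the labels' processing notes and the study's methods. The deposited values are raw counts per gene and library. The 5 summary lines of each table name no gene and stayed out of library sizes and tests. The line for reads on no gene held 54.5% to 62.8% of each table. Libraries were grouped by the tissue label, and no pair of replicates agreed within sampling noise (128 pairs, lowest chi-square per degree of freedom 12.0).

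TMM factors (edgeR 4.0.16, R 4.3.3) were computed over all 34 libraries and ranged from 0.523 to 0.747 in M and from 1.01 to 1.29 in the fats. The members and gene lists were chosen with earlier results of these data known, and the levels of I against O, S and M, which chose the members, were given no test. The muscle level of a library is the median over 153 genes (at least 100 CPM in M and 100 times the fats) of its level above O and S, relative to M. Other contrasts used edgeR's quasi-likelihood test with filterByExpr (minimum count 10) on all genes, Benjamini-Hochberg adjustment and FDR under 0.01, with DESeq2 1.42.0 and the likelihood ratio test as alternatives. Log2 CPM used a prior count of 2. The fits were tested on simulated data.

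Titles carry the animal number, so replicates of a number were taken to share an animal, which is in doubt for M of animal 4. Deviations of O and S from their tissue means correlated in every animal (r of 0.268 to 0.769 over 9), those of M and O from -0.08 to 0.37 over 8 (0.065 to 0.37 without animal 4). Identifiers were named by rule: the 10 highest I medians, the 10 largest ratios, the 5 most and 5 least variable, the 3 most central and most abundant of each group, and the 5 lowest p in each direction among calls, with only a few printed. ENSBTAG00000020814 fell outside it. RefSeq symbols did not match the identifiers, so names, lists and sequences were not used. The strand setting of the counting is not given in the sources used here, so overlapping genes cannot be told apart. Near-identical copies also cannot, since reads with more than 1 alignment were counted on no gene.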

Additional observations from a re-analysis of the deposited data

Results flagged for a closer look

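Of 38 values or series checked with Dixon's test at the 95% level within a tissue, 6 had a library far from the rest. Chance flags about 1 in 20 of separate series, but these share libraries and the groups were formed on the I libraries. That rate is thus no yardstick for the 6. Muscle replicate 8 stood above the other muscle libraries in the summed share of the members, at 0.966% of the counts on genes. Intramuscular replicate 5 stood below the others for group 1, at 0.238 of its members' medians, and for group 12 (6 members), at 0.316. It was also low for ENSBTAG00000007602 of group 1, at 15.4 CPM, and for ENSBTAG00000008940, at 2.04 CPM. Intramuscular replicate 4, with 13.1% of its reads aligned more than once, stood above the others for group 8, at 1.93 times its members' medians. What sets these libraries apart was not tested.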

How the results depend on the processing

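The number of members stayed within 1.5 times of 202 under RLE factors, no factors (211, of which 179 shared), means for medians (214, 173 shared), 10 CPM (163) and leaving out each I library or muscle replicates 4 or 8 (188 to 213), and moved to 308 at 3 times and 70 at 8 times. The members without overlap were 146 without intramuscular replicate 5 and 123 without muscle replicate 8, and no other library was left out there. Members called in O against S numbered 14 with the likelihood ratio test, 13 with DESeq2, 7 without a filter, 7 with a filter of more than 1 CPM, 14 with the animals paired as a replicate block, 7 with the sex label as covariate, 17 at FDR under 0.05, and 2 to 5 with 1 animal left out, where 2 remained without animals 4, 8 or 9. In M against O and S, no factors gave 2 higher and 76 lower, FDR under 0.05 gave 29 higher and 32 lower, and leaving out 1 muscle library gave 12 to 20 higher and 17 to 31 lower, the ends of 12 and 31 without replicate 8. With the replicate block it was 17 higher and 29 lower (17 and 22 without muscle replicate 4, chosen after seeing the data), and among the members whose fold changes are given the block changed the call of ENSBTAG00000015988 alone. By sex label, the likelihood ratio test and DESeq2 called 1 each, and the quasi-likelihood test called 0 with each I library left out in turn. The median r of member pairs in I ran from 0.11 to 0.19 with 1 library left out. The share of all genes called also moved with the setting. In O against S, 2% were higher in O and 1.32% higher in S in the main fit. With the replicate block these were 4.57% and 3.66%. Such shares were not taken for every setting, so a change in the members' counts cannot be told from a general change in calls. The cause of these moves was not tested, beyond the looser thresholds.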
